A study of Mus musculus with 4 samples.

Results

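Levels of 10 genes for ER chaperones and the unfolded protein response were compared in reprogramming cells with and without activated AKT, where ER is the endoplasmic reticulum: Hspa5, Hsp90b1, Pdia4, Pdia6, Dnajb9, Dnajc3, Herpud1, Xbp1, Sdf2l1 and Creld2. They were taken by name, as every non-control probe that the scanner output assigns to them, and were chosen with earlier results of these data known. The 10 genes had 13 probes, of 34816 genes and 55681 probes on the array. All 10 were well above background on all 4 arrays. None differed by 2-fold or by 1.5-fold, on its brightest probe, between any pair of arrays compared. Such differences were uncommon among all genes measured, at 0.886% to 3.04% past 2-fold and 5.95% to 10.6% past 1.5-fold, depending on the comparison. Their absence among 10 genes therefore does not set these genes apart.

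RNA came from mouse embryonic fibroblasts of Oct4-EGFP transgenic mice (OE-MEFs), isolated at E13.5 from male embryos and mixed from several embryos. All cells carried retroviral Oct4, Sox2 and Klf4 (OSK), and OSKA cells also carried AKT-MER, a myristoylated AKT fused to a modified estrogen receptor that the ligand 4-hydroxytamoxifen (4OHT) switches on. From 3 days postinfection (dpi) cells received 4OHT or ethanol vehicle, and at 8 dpi 1 single-colour array was hybridised for each of 4 groups, OSK cells on vehicle or 4OHT and OSKA cells on vehicle or 4OHT, the last being the AKT-activated cells. The cultures were not sorted, so each value averages cells at all stages of reprogramming, and fewer cells of a type and less RNA per cell cannot be told apart. One free-text label of the OSKA array with 4OHT states that AKT-MER was not activated, against its title, and the title was followed here. With 1 array per group there was no replicate and no test, and the 4 arrays lay at different positions of 1 slide, so position, culture and group cannot be told apart.

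The ER is where secreted and membrane proteins are folded, and chaperones such as BiP (the product of Hspa5) hold unfolded chains there while disulfide isomerases join their cysteines. When unfolded chains accumulate, 3 membrane sensors, IRE1, ATF6 and PERK, start the unfolded protein response. ATF6 and spliced XBP1 then raise transcription of the chaperone genes through the ER stress response element (ERSE), while PERK slows translation and favours ATF4. Fibroblasts secrete large amounts of collagen, and AKT activates protein synthesis, which is background to these comparisons and was not measured here.

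A promoter element that several of these genes share is shown first, since the response is known to act through it. The promoter windows of RefSeq (mouse build GRCm38.p6) run from 250 bases before to 50 bases after each annotated start, and all 10 genes have one. Both strands were searched for the consensus of ERSE, which is CCAAT, 9 free bases and CCACG, and for that of ERSE-II, which is ATTGG, 1 free base and CCACG. The 2 patterns share CCACG and, read on opposite strands, CCAAT. The capitals below mark the fixed letters, and each element is written in the direction of its consensus.
Hspa5 ERSE: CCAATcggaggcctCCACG
Hsp90b1 ERSE, far: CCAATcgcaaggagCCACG
Hsp90b1 ERSE, near: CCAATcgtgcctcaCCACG
Pdia6 ERSE: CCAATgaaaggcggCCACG
Dnajc3 ERSE: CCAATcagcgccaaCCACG
Creld2 ERSE: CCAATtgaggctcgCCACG
Herpud1 ERSE-II: ATTGGgCCACG

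The exact ERSE stood in the windows of 5 of the 10 genes and in 39 of all 32851 windows, which is 0.119% of them. It began 65 bases before the start of Hspa5, 98 before that of Pdia6, 105 before that of Dnajc3 and 126 before that of Creld2, where it lay on the opposite strand. Hsp90b1 held it at 212 bases on its own strand and again, ending 89 bases before the start, on the opposite strand. The Creld2 element is at chr15:88819520-88819538 and also falls in the window of Alg12, the neighbouring gene that runs the other way. ERSE-II was found in 12 windows (0.0365%), among them that of Herpud1, 52 bases before its start. With 1 of the fixed letters of ERSE exchanged, 461 windows (1.4%) matched, including those of Pdia4, Hsp90b1 and Herpud1. The windows of Dnajb9, Xbp1 and Sdf2l1 held none of the 3 patterns, which says only that these letters are not in these windows.

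The bases before the start of the BiP gene and of Creld2 are given in full on the strand of each gene, the first as the best known target of the response and the second because its probe was printed 10 times on each array. The Hspa5 stretch is chr2:34771840-34772089, the Creld2 stretch is chr15:88819396-88819645 (GRCm38.p6), and the capitals are the fixed letters of ERSE as they read on this strand.
Hspa5, 250 bases before the start: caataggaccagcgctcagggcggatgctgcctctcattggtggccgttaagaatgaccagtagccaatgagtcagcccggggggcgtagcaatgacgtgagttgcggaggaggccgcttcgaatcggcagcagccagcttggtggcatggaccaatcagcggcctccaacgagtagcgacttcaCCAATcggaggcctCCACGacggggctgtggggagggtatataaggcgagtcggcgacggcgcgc
Creld2, 250 bases before the start: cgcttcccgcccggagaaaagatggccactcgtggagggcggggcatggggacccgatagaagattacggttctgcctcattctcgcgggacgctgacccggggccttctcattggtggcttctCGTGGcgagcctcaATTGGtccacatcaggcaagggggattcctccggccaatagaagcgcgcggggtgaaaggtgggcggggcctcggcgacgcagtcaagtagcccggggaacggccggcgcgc

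**Figure D1:**
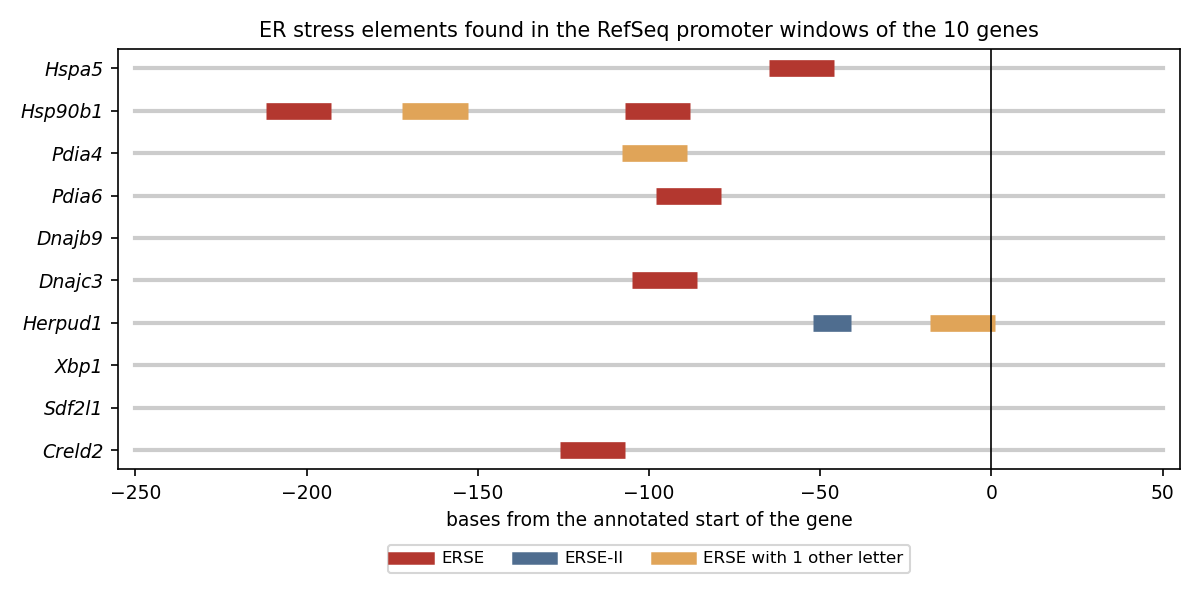
Positions of the 3 patterns in the promoter windows of the 10 genes. The x axis gives bases from the annotated start, each grey line is a window, and coloured blocks are matches on either strand. The exact ERSE lies between 212 and 47 bases before the start in 5 genes, and 3 genes have no block.

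Levels below are log2 intensities minus the 75th percentile of the same array, so a level of 0 is the 75th percentile and a difference of 1 between arrays is 2-fold. Levels of different genes come from different probes and are not set against each other. The scanner software gives an error for each intensity, close to 10% of the signal for every one of these genes, which makes 0.204 to 0.2045 log2 units for a difference of 2 arrays. It was nearly the same share of the signal for each of the 10 genes, so it is not a spread measured for each. It covers the measurement on the array and not the spread between cultures. Of the 40 differences of the 10 genes in the 4 comparisons, 15 were larger than this error, and the largest was 0.45 (1.37-fold). Over all genes measured on the 4 arrays 40.6% of the differences were larger than their error, and over the 6513 brightest 31.5%, so the share of the 10 lay near the background. The comparisons share arrays in pairs and are not independent.

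Levels, and the order of the 4 arrays, are thus relative to the bulk of the genes on each array. When the arrays were scaled to their spike-in RNAs instead, the median of all genes moved by −0.31 for 4OHT in OSK cells, −0.44 for AKT-MER without 4OHT and −0.12 for AKT-MER with 4OHT, but by 0.01 for 4OHT in OSKA cells. The medians of the 10 then turned negative in the first pair, at −0.26 and −0.40, with 1 and 0 of 10 genes higher, and became 0.02 and 0.10 in the others, with 5 and 8 of 10 higher. The OSK array without 4OHT, lowest for 6 of the 10 in the scaling used here, was then the highest for 8 of the 10 and for 78.9% of all genes, and the AKT-activated array was the highest for Pdia4 alone and for 8.67% of all genes. Orders of arrays given below hold for the 75th percentile, while the difference between OSKA cells with and without 4OHT kept its sign in each of the 10 genes under both scalings.

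On the array of AKT-activated cells 6 of the 10 genes had their highest level, Hspa5, Hsp90b1, Pdia4, Pdia6, Xbp1 and Creld2. The same array held the highest level for 27.3% of all 19540 genes measured on the 4 arrays and for 28.3% of the 6513 brightest of them, to which 6 of the 10 genes belong. The OSK array without 4OHT had the lowest level for 6 of the 10, against 27.2% of all genes and 26% of the 6513 brightest. The spread over the arrays was small. The median distance from the lowest to the highest array was 0.29 for the 10 genes, 0.36 for all genes and 0.28 for the 6513 brightest.

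**Figure D2:**
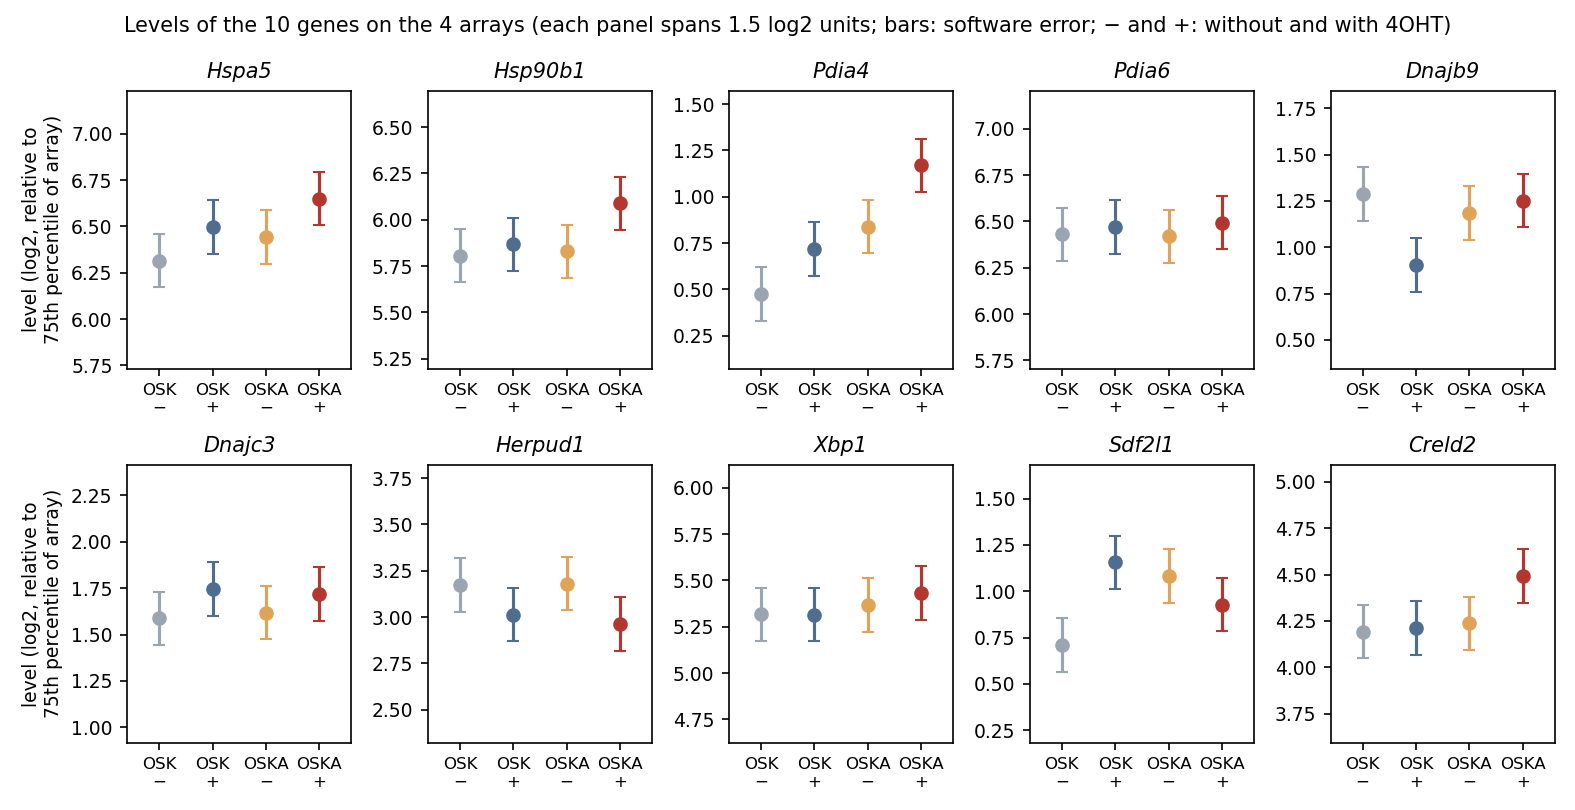
Levels of the 10 genes on the 4 arrays, with OSK and OSKA cells without (−) and with (+) 4OHT on the x axis and the log2 level over the array's 75th percentile on the y axis. Points are single arrays, bars are the software error, and every panel spans the same height. Pdia4 covers the widest distance, 0.69, and Pdia6 the narrowest, 0.07.

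The ER chaperones came first. Hspa5 encodes BiP, the HSP70 of the ER lumen, and its probe lies at chromosome 2, 34631913 to 34631972 in NCBI37, the build of the probe positions, which differs from that of the promoter windows. Its level was 6.32 in OSK cells on vehicle, 6.50 in OSK cells on 4OHT, 6.44 in OSKA cells on vehicle and 6.65 in AKT-activated cells. Both arrays with 4OHT were above both without. The 4OHT difference was 0.21 in OSKA cells (1.15-fold) and 0.18 in OSK cells (1.13-fold; −0.13 under spike-in scaling), and only the former passed the software error, by a narrow margin. Hsp90b1 encodes GRP94, the HSP90 of the ER (probe at chromosome 10, 86153770 to 86153829), and lay at 5.81, 5.87, 5.83 and 6.09 in the same order. Here the AKT-activated cells alone stood apart from the other 3 arrays. They were 0.26 above OSKA cells without 4OHT (1.20-fold) and 0.22 above OSK cells with 4OHT. For 4OHT in OSK cells the Hsp90b1 difference was 0.06. Under spike-in scaling these values were 0.27, 0.10 (within the software error) and −0.25.

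The disulfide isomerases differed between themselves. Pdia4, which encodes ERp72 (probe at chromosome 6, 47746516 to 47746575), lay at 0.48 and 0.72 in OSK cells (vehicle, then 4OHT) and at 0.84 and 1.17 in OSKA cells (vehicle, then 4OHT). The 4 arrays were thus graded, with both OSKA arrays above both OSK arrays and, within each, 4OHT above vehicle. It was the one gene of the 10 whose differences passed the software error in all 4 comparisons, at 0.33 for 4OHT in OSKA cells, 0.24 for 4OHT in OSK cells, 0.36 for AKT-MER without 4OHT and 0.45 for AKT-MER with 4OHT. Under spike-in scaling 4OHT in OSK cells gave −0.07 and AKT-MER without 4OHT −0.08, within the error and of the other sign, and the grading was lost. A range of 0.69 over the arrays (1.62-fold) was exceeded by 17.4% of all genes and by 6.36% of the 6513 brightest. Pdia4 itself is not among those brightest genes. Pdia6, which encodes P5, was read by 3 probes. The brightest (chromosome 12, 17291070 to 17291129) gave 6.43, 6.47, 6.42 and 6.49 in OSK cells (vehicle, then 4OHT) and OSKA cells (vehicle, then 4OHT). Differences between these arrays were within the software error, and 98.1% of all genes had a wider range. Another Pdia6 probe (17291323 to 17291382) gave 1.45, 1.47, 1.41 and 1.60, again with the highest value in AKT-activated cells, and the remaining one (17288537 to 17288596) stayed at background on all 4 arrays.

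Of the J-domain proteins, which bring client chains to BiP and start its ATPase, neither gave a difference between OSKA cells with and without 4OHT beyond the software error. Dnajc3 encodes p58IPK (probe at chromosome 14, 119378131 to 119378190), and its levels were 1.59, 1.74, 1.62 and 1.72 in the same order. The arrays with 4OHT were slightly above those without, by 0.16 in OSK and 0.10 in OSKA cells. Dnajb9, which encodes ERdj4 (probe at chromosome 12, 45307313 to 45307372), was lowest in OSK cells with 4OHT, at 0.91, against 1.29 in OSK cells without 4OHT, 1.18 in OSKA cells without and 1.25 in OSKA cells with 4OHT. That single low array set both of its larger differences, −0.38 for 4OHT in OSK cells and 0.35 for AKT-MER with 4OHT. The other Dnajb9 probe (45308272 to 45308331) did not show it. Its levels were −2.97, −2.35, −2.33 and −2.37, lowest in OSK cells without 4OHT, and its 4OHT difference in OSK cells was 0.62, opposite in sign and past 1.5-fold, as was its difference of 0.64 for AKT-MER without 4OHT. The direction for Dnajb9 in OSK cells thus depends on the probe.

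Of the genes for degradation and transcription, Herpud1 lay lower with 4OHT and Xbp1 varied little. Herpud1 encodes a membrane protein of ER-associated degradation (probe at chromosome 8, 96919117 to 96919176), and its levels were 3.17 and 3.01 in OSK cells (vehicle, then 4OHT) and 3.18 and 2.96 in OSKA cells (vehicle, then 4OHT). Both arrays with 4OHT were below both without, by 0.16 in OSK cells (within the software error) and 0.22 in OSKA cells (just past it). AKT-MER made differences of 0.01 and −0.05. Xbp1 encodes the transcription factor whose mRNA IRE1 splices, and its probe (chromosome 11, 5425816 to 5425875) lists 2 RefSeq transcripts and gives 1 value for them. Its levels were 5.32, 5.32, 5.37 and 5.43. No Xbp1 difference passed the software error, and the array reports nothing on the spliced share.

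Sdf2l1 and Creld2 are induced by ER stress and act with the chaperones. Sdf2l1, a partner of the ER J-domain proteins (probe at chromosome 16, 17130426 to 17130485), lay at 0.71 and 1.16 in OSK cells (vehicle, then 4OHT) and at 1.08 and 0.93 in OSKA cells. One array, OSK without 4OHT, was low. Against it the level was 0.45 higher with 4OHT (1.36-fold) and 0.37 higher with AKT-MER, whereas 4OHT in OSKA cells gave −0.15, within the software error. Under spike-in scaling the former 2 were 0.13 and −0.07, and the OSK array without 4OHT was no longer the lowest. AKT-MER with 4OHT, which does not use that array, gave −0.23, past the software error and opposite in sign. On the brightest probes the gap between the 4OHT difference in OSKA and in OSK cells was −0.60 for Sdf2l1 and 0.45 for Dnajb9. Under spike-in scaling these were −0.28 and 0.77, and with the mean of its probes Dnajb9 gave −0.11. These gaps rest on 4 single arrays and were not tested.

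Creld2, a cysteine-rich disulfide isomerase of the ER (probe at chromosome 15, 88656997 to 88657056), was printed 10 times on each array and thereby shows the technical spread. Its levels were 4.19, 4.21, 4.24 and 4.49 in OSK cells (vehicle, then 4OHT) and OSKA cells (vehicle, then 4OHT). The SDs over the 10 spots were 0.035, 0.0448, 0.0417 and 0.0335 in the same order. The software error of each of these levels was 0.144, larger than the SDs. The lowest spot in AKT-activated cells read 4.44 and the highest on the other 3 arrays read 4.32. In this scaling the AKT-activated array was therefore separated from the rest by more than the spread between spots. It lay 0.26 above OSKA cells without 4OHT and 0.28 above OSK cells with 4OHT (0.27 and 0.17 under spike-in scaling). The spots are technical copies on 1 array, not replicates of the culture.

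**Figure D3:**
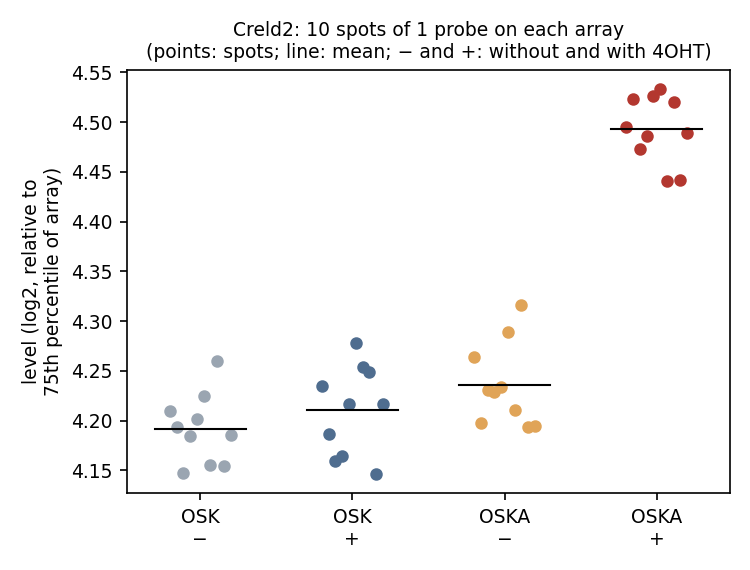
Log2 level of each of the 10 Creld2 spots on the 4 arrays, over the array's 75th percentile (y axis), for OSK and OSKA cells without (−) and with (+) 4OHT (x axis). Points are spots and lines their means. All 10 spots of AKT-activated cells, the lowest at 4.44, lie above every spot of the other arrays.

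The effect of AKT activation was read first from OSKA cells with against without 4OHT. In this comparison 2.91% of 20300 genes were past 2-fold and 9.69% past 1.5-fold, against 0 of the 10 genes at either size. Of the 10, 8 lay higher with 4OHT by any amount, against 45.2% of all genes and 45.1% of the 6513 brightest. Their median difference was 0.09, beside −0.03 for all genes and −0.03 for the 6513 brightest. The highest was Pdia4 and the lowest Herpud1.

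For 4OHT in OSK cells, which lack AKT-MER, 0.886% of 19861 genes passed 2-fold and 5.95% passed 1.5-fold, and again 0 of the 10. The median of the 10 was 0.05 against −0.00 for all genes, and 7 of the 10 lay higher (5 with normexp), where 49.4% of all genes and 53.1% of the 6513 brightest did. The 4OHT difference in OSKA cells was larger than that in OSK cells for 7 of the 10 genes, against 45.7% of all genes and 43.8% of the 6513 brightest. The median of this gap was 0.05, beside −0.04 for all genes. Under spike-in scaling the count was 9 of 10 against 77.7% of all genes and the median 0.37 against 0.29, and with the mean of all probes the count was 6 of 10. In the scaling used here the largest of the 7 was Dnajb9 (0.45, but −0.11 with the mean of its probes). Creld2 (0.24) and Hsp90b1 (0.20) followed, then Pdia4 (0.09), Xbp1 (0.06), Pdia6 (0.03) and Hspa5 (0.03). No error was computed for these gaps. For no gene did both 4OHT differences pass the software error with opposite signs.

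AKT-MER was then compared at a fixed treatment. Without 4OHT, 2.02% of 20183 genes were past 2-fold and 9.65% past 1.5-fold, against 0 of the 10. Their median was 0.04 beside −0.02 for all genes, and 8 of 10 lay higher (6 with normexp), beside 47% of all genes and 42% of the 6513 brightest. With 4OHT, 3.04% of 19846 genes were past 2-fold and 10.6% past 1.5-fold, and 0 of the 10. Here the median of the 10 was 0.14 beside −0.05, and 7 of 10 lay higher, beside 42.9% of all genes and 39.9% of the 6513 brightest. Pdia4 at 0.45 led the latter, and Sdf2l1 at −0.23 was last.

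**Figure D4:**
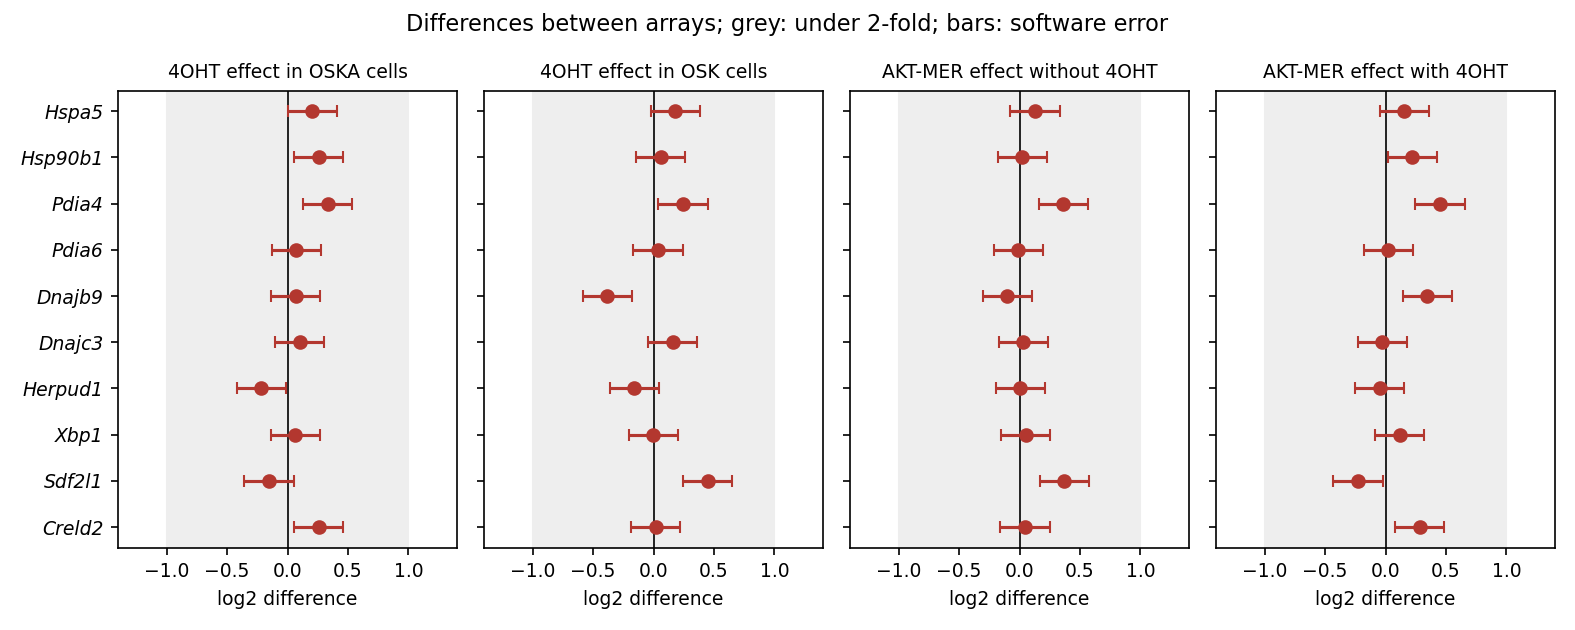
Log2 differences of the 10 genes in the 4 comparisons (x axis), 1 gene a row, with bars for the software error of a difference and grey for differences under 2-fold. Every point lies within the grey, and Pdia4 is the gene whose bar clears 0 in all 4 panels.

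The 5 genes with the exact ERSE in their windows lay higher with 4OHT in OSKA cells in 5 of 5 cases, where 45.2% of all genes did, by 0.07 to 0.26 with a median of 0.21. The 5 without it were higher in 3 of 5 cases and spanned −0.22 to 0.33 with a median of 0.06, and Pdia4, the highest of all, was among them. Of 14 genes outside the 10 that hold the same element and were measured for 4OHT in OSKA cells 6 lay higher, with a median of −0.05, and none was past 2-fold. The extremes were Ero1b, an oxidase of the ER (0.56), and Acacb, an acetyl-CoA carboxylase (−0.35). For 4OHT in OSK cells the 5 with the element were higher in 5 of 5 cases (49.4% of all genes), but in 3 with normexp and in 0 under spike-in scaling. The 5 without it were higher in 2 of 5 cases, and the medians were 0.06 with the element and −0.00 without. For AKT-MER without 4OHT 4 of 5 were higher both with and without the element (47% of all genes), with medians of 0.03 and 0.05, and 0 of 5 in either under spike-in scaling. With 4OHT they were 4 and 3 of 5 (42.9% of all genes), with medians of 0.15 and 0.12. Genes outside the 10 that hold the element lay higher in 5 of 15 cases for 4OHT in OSK cells (median −0.10). For AKT-MER they did so in 8 of 15 without 4OHT (median 0.02) and in 5 of 14 with it (median −0.07). This division by motif was made with the levels known.

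The wider ER machinery was described through 8 lists, of which 86 of 87 genes were found on the array. The 19 further folding factors of the ER lumen had 15 of 19 genes higher with 4OHT in OSKA cells, against 45.2% of all genes, and a median of 0.12 against −0.03, led by Ero1b (0.56) and ending with the isomerase gene Pdia5 (−0.35). Of 14 genes for translocation and entry into the secretory pathway 13 lay higher, against the same share, with a median of 0.13. Sec61a1, the channel subunit, was highest at 0.39 and Spcs3, of the signal peptidase, lowest at −0.14. On these brightest probes only Sec61a1, Sec61g, Ssr1 and Ssr2 passed the software error. Other probes lay lower for Sec63 (−0.23) and Spcs2 (−0.06) and higher for Sec61b (0.25), Sec62 (0.18) and Ssr3 (0.25). Those of Ssr1 gave 0.28 and −0.005, and that of Spcs3 −0.19. Genes of collagen folding had a median of 0.22 for 4OHT in OSKA cells, between Fkbp14 (0.57) and Plod2 (−0.06). For AKT-MER their median was 0.21 without 4OHT and 0.39 with it. Under spike-in scaling these were −0.23 and 0.27. ER-associated degradation had a median of 0.08, from Herpud2 (−0.28) to Derl1 (0.21). None of these genes was past 2-fold in any comparison on its brightest probe, although a dimmer probe of Dnajc10 read 1.01 for AKT-MER without 4OHT.

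Chaperones of other compartments had medians near 0 in this comparison. The 11 cytosolic heat shock genes measured had a median of −0.00 for 4OHT in OSKA cells, from Hspa1a (−0.39) to Hspb8 (0.30). The 8 mitochondrial chaperone and protease genes had 0.00, from Hspe1 (−0.11) to Grpel1 (0.14). These ranges are of the brightest probes. Another probe of Dnaja1 gave 0.66 and another of Grpel1 −0.41, opposite in sign, both well above background on all 4 arrays. The sensors themselves were mixed. Eif2ak3, which encodes PERK, lay 0.42 higher and Ern1, which encodes IRE1, 0.35 lower, around a median of 0.01.

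The PERK arm and integrated stress response was the pathway list with genes past 2-fold. Of its 8 genes 6 lay higher with AKT-MER without 4OHT, against 47% of all genes, and 1 of them was past 2-fold. With 4OHT 5 lay higher with AKT-MER, against 42.9% of all genes, and 2 of them were past 2-fold. Atf3, a stress-induced transcription factor gene, lay lower in both at −0.18 and −0.20, Atf4 gave −0.02 without 4OHT, and Ppp1r15a and Ppp1r15b, phosphatase subunit genes, gave −0.11 and −0.06 with 4OHT. Its median was 0.13 for 4OHT in OSKA cells, 0.13 for 4OHT in OSK cells, 0.32 for AKT-MER without 4OHT and 0.29 with 4OHT. Under spike-in scaling these medians were 0.15, −0.18, −0.12 and 0.17 in the same order. With the mean of all probes the median for 4OHT in OSKA cells was 0.07. Trib3, a pseudokinase gene induced by ATF4 and CHOP, lay at 1.99 and 2.24 in OSK cells (vehicle, then 4OHT) and at 3.21 and 3.84 in OSKA cells (vehicle, then 4OHT). Both OSKA arrays stood above both OSK arrays. Trib3 rose by 1.22 with AKT-MER without 4OHT (2.33-fold) and by 1.60 with 4OHT (3.04-fold), and under spike-in scaling the former was 0.78, below 2-fold. Chac1, which encodes a glutathione-degrading enzyme, lay at 1.30, 1.56, 2.14 and 2.64 in the same order. It rose by 1.08 with AKT-MER in the presence of 4OHT (2.11-fold; 0.96 and so below 2-fold under spike-in scaling), and differed by 0.83 without 4OHT (0.39 under spike-in scaling). The share of all genes past 2-fold upward was 1.09% without and 1.92% with 4OHT. With 4OHT in OSKA cells Trib3 was the highest of the list at 0.64 and Atf3 the lowest at −0.18, and neither was past 2-fold. On their brightest probes the 10 genes of the folding response differed by at most 0.37 without and 0.45 with 4OHT in the same comparisons of AKT-MER, and under spike-in scaling by at most 0.54 and 0.35.

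**Figure D5:**
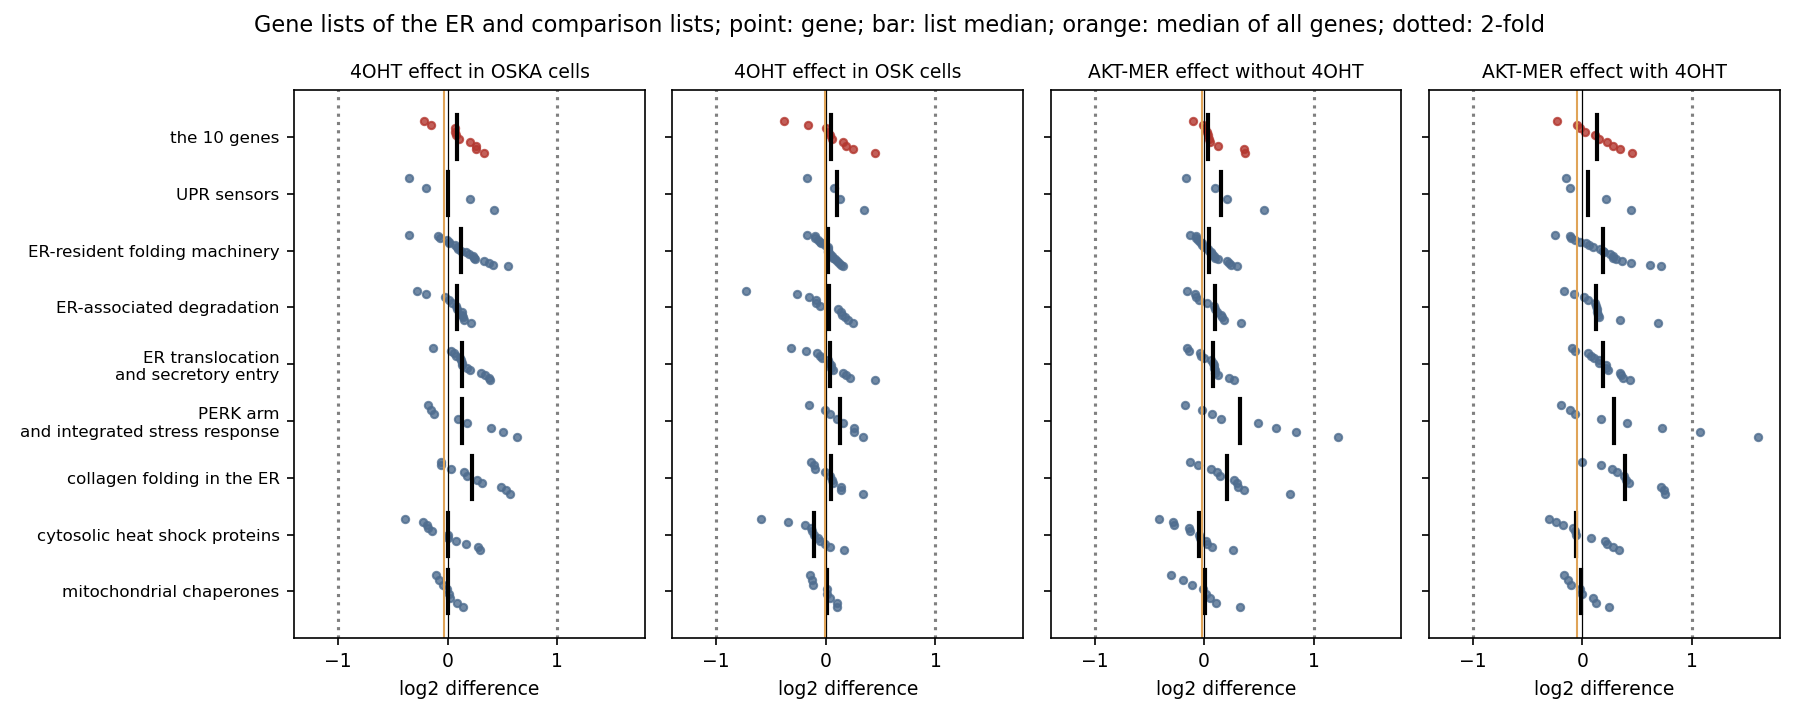
Log2 differences of the genes of each list (points) in the 4 comparisons (x axis), with the list median as a black bar, the median of all genes as an orange line and 2-fold as dotted lines. The 10 genes are in the top row, and Trib3 and Chac1 are the points beyond the dotted line in the row of the PERK arm.

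Hspa5 was also used to look for genes of like pattern, by the root mean square distance between levels centred over the 4 arrays. Among 14276 genes the nearest 5 were 6330549D23Rik (0.0122), Twf1, Ccdc107, Atp7a and Tmem37 (0.0136). Hsp90b1 came at rank 255, Creld2 at 503, Dnajc3 at 1078, Xbp1 at 1331 and Pdia6 at 1752, while Herpud1 was farthest of the 10, at 8324. With 4 arrays this ranking has little resolution, since 8105 genes lay nearer to Hspa5 than the software error of a difference.

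The arrays also differed in markers of cell type. All 9 fibroblast markers were measured on every array, and their summed linear level was 1329, 1356, 1476 and 1619 in OSK cells (vehicle, then 4OHT) and OSKA cells (vehicle, then 4OHT), highest where 6 of the 10 genes were highest. The markers did not all move alike. For 4OHT in OSKA cells 7 of the 9 lay higher, against 45.2% of all genes, led by Lum at 1.13. Pdgfrb gave −0.67 and Vim −0.25. Of the 6 osteoblast markers 3 were measured on all arrays, with a sum of 0.602, 0.557, 0.556 and 3.13. For 4OHT in OSKA cells Bglap2 gave 3.83 and Alpl was 2.83-fold higher. Thus 2 of the 3 were past 2-fold higher, against 408 of 20300 genes, whereas Runx2 gave −0.44. Sp7 and Ibsp were not well above background on any array. The sums of 5 leukocyte markers were 59.5, 70.4, 68.7 and 56.6, those of 5 of 7 pluripotent cell markers 3.48, 4.58, 4.73 and 3.30, those of 5 of 6 epithelial markers 4.35, 3.41, 2.42 and 3.99, and those of 3 of 4 endothelial markers 8.00, 11.9, 8.91 and 10.1. These sums covered unlike genes. With AKT-MER without 4OHT 3 of the 5 epithelial markers were past 2-fold lower, against 188 of 20183 genes. These were Krt8 at −1.23, Cdh1 at −1.05 and Cldn3 at 0.498 times its level in OSK cells. For 4OHT in OSKA cells Cldn3 gave 1.52 and Epcam −0.45. With AKT-MER and 4OHT Krt18 gave 1.06. The endothelial sum followed Kdr, at 0.73 for 4OHT in OSK cells and 0.30 for AKT-MER without 4OHT, where Tek gave −0.56 and −0.83 and Pecam1 −0.01 and −0.36. Zfp42, Esrrb and Cdh5 were likewise not well above background. The part of cell makeup in the differences of the 10 genes was not tested. The labels were checked with Esr1, whose brightest probe, reading the receptor part of AKT-MER, was well above background on both OSKA arrays and on neither OSK array. This separates OSKA from OSK cells and checks neither the 4OHT labels nor whether AKT-MER was active. From 52.4% to 55.4% of non-control spots were well above background, and no spot was saturated.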

How the data were processed

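Expression was measured on 4 single-colour Agilent mouse arrays, 1 for each group, from 100 ng of total RNA. The authors scanned them with Agilent Feature Extraction (10.7.3.1, per the submitters' processing notes) and deposited the processed intensity of each spot with its error and quality marks. Probe positions follow NCBI37 (mm9), per the file headers. The deposited value table holds the same intensities on a linear scale, with unstated further processing, and was used as an alternative.

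Spots that were controls or marked uneven or outlying were left out. The log2 intensity was reduced by the 75th percentile of the array, spots of a probe were averaged, and the brightest probe stood for a gene. Differences needed a probe well above background on both arrays. Probes were renamed through RefSeq accessions, and 27509 probes (49.4%) were named by accession. Scripts used Python 3.11.15, numpy 2.4.6, pandas 2.3.3, R 4.3.3 and limma 3.58.1, and were tested on simulated data. Marker sums added linear levels of markers measured on all 4 arrays.

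Of each pathway list, the genes highest and lowest for 4OHT in OSKA cells and any past 2-fold were named, as were the 5 genes nearest to Hspa5. The rule did not cover cell type markers, and those given singly were chosen after their values were seen. The 10 genes and all lists were chosen with earlier results of these data known, and the 2-fold threshold is the size the study applied to RNA sequencing, not to these arrays. The 8 alternatives were normexp background correction (offset 50), quantile normalization, spike-in scaling, no filter on dim probes, a filter on all 4 arrays, the mean of all probes of a gene, the deposited value table and a 1.5-fold threshold. The number of arrays limits the precision, and no p-value was computed. Probe sequences are not printed, and the place of the probes within exons was not analysed here.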

Additional observations from a re-analysis of the deposited data

How the results depend on the processing

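No gene of the 10 passed 2-fold in any comparison under any of the alternatives, and none passed 1.5-fold in the reported setting. The largest difference in any setting was 0.69. The median of the 10 moved beyond the software error only under spike-in scaling, to −0.26 for 4OHT in OSK cells and −0.40 for AKT-MER without 4OHT, where the median of all genes moved as well and the cause was not tested. Otherwise the medians ranged from 0.07 to 0.15 for 4OHT in OSKA cells, 0.02 to 0.09 for 4OHT in OSK cells, 0.01 to 0.05 for AKT-MER without 4OHT and 0.12 to 0.24 for AKT-MER with 4OHT. Of 280 recomputed differences of single genes 24 moved beyond the software error, 20 of them under spike-in scaling. The other 4 came with the mean of all probes, for 4OHT in OSK cells and AKT-MER without 4OHT. It gave 0.12 and 0.27 for Dnajb9 and −0.24 and −0.34 for Pdia6. That mean takes in the second Dnajb9 probe, well above background with differences of 0.62 and 0.64, and a Pdia6 probe at background. Spike-in scaling also moved the split of all genes past 2-fold, from 219 higher and 188 lower to 42 and 899 for AKT-MER without 4OHT, from 121 and 55 to 32 and 187 for 4OHT in OSK cells, and from 381 and 222 to 307 and 325 for AKT-MER with 4OHT. The main counts of all genes past 2-fold for 4OHT in OSKA cells were 408 higher and 183 lower. With normexp they were 170 and 36 there, 22 and 4 for 4OHT in OSK cells, 38 and 43 for AKT-MER without 4OHT and 173 and 64 with 4OHT. With no filter on dim probes they were 1881 and 1455, 1270 and 1207, 1469 and 1523, and 1705 and 1441 in the same order, and the mean of all probes gave 75 and 28 for 4OHT in OSK cells. Trib3 and Chac1 and the list medians were recomputed as alternatives chosen after seeing the data, and outside spike-in scaling Trib3 and Chac1 with AKT-MER and 4OHT stayed at 1.60 to 1.63 and 1.05 to 1.08 (log2). All 8 list medians were negative under spike-in scaling for 4OHT in OSK cells (−0.43 to −0.18) and for AKT-MER without 4OHT (−0.49 to −0.12). Quantile normalization turned the cytosolic heat shock median for AKT-MER with 4OHT from −0.06 to 0.17, and put the PERK arm (0.41) above collagen folding (0.40) there. The mean of all probes took the median of the sensors for 4OHT in OSKA cells from 0.01 to 0.21. No paired analysis was possible because each group had 1 array and the labels give no replicate numbers, and for the same reason no array could be left out.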
